A study of Oryza sativa Japonica Group with 29 samples.

Results

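The SnRK2 kinases of rice, SAPK1 to SAPK10, are plant protein kinases that carry the response to abscisic acid (ABA) and to osmotic stress. ABA binds soluble PYL/RCAR receptors, the occupied receptors block clade A protein phosphatases (PP2Cs), and SnRK2 kinases that these phosphatases otherwise hold inactive can then phosphorylate bZIP transcription factors such as TRAB1 and BZIP23. Hyperosmotic stress is known to activate every SAPK, whereas SAPK8, SAPK9 and SAPK10, the subclass III kinases, are the members that ABA also activates. Kinase activity is set by phosphorylation, and a transcript level measures neither this activity nor the amount of kinase protein.

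The 10 members were taken by locus identifier, with no measured value used in the choice, from 55986 loci listed in each library, and all 10 passed the filter on low values. They fall into subclass I, with SAPK4 (LOC_Os01g64970), SAPK5 (LOC_Os04g59450), SAPK6 (LOC_Os02g34600) and SAPK7 (LOC_Os04g35240), subclass II, with SAPK1 (LOC_Os03g27280), SAPK2 (LOC_Os07g42940) and SAPK3 (LOC_Os10g41490), and subclass III, with SAPK8 (LOC_Os03g55600), SAPK9 (LOC_Os12g39630) and SAPK10 (LOC_Os03g41460). The loci lie on chromosomes 1, 2, 3, 4, 7, 10 and 12, with 3 of them (SAPK1, SAPK8 and SAPK10) on chromosome 3 and 2 (SAPK5 and SAPK7) on chromosome 4. Names of 9 members matched a reference gene table by symbol, chromosome, position and length, and SAPK9 matched by all but length. No member sequence was in the files used here, so none is shown.

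RNA was sequenced from roots of rice seedlings (Oryza sativa Japonica Group) that were 25 days old, at the 4-leaf stage and raised in hydroponics. OE plants over-express OsNMCP1, which resembles the lamins that line animal nuclei, and WT plants are the cultivar ZH11. Drought means 3 h without water before sampling, and normal means without this deprivation. The 4 groups were OE drought (3 libraries), WT drought (3), OE normal (2) and WT normal (3). The labels give neither the promoter of the transgene nor the number of independent OE lines, and nothing says whether replicates were grown separately, so the tests speak to the variation among these libraries.

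Several facts of the whole series bear on the values below. OsNMCP1 stood at 347 to 452 TPM (a length-corrected share of the library) in OE drought and 28.1 to 46.4 TPM in WT drought libraries. It stood at 167 and 184 TPM in OE normal against 35.5 to 37.6 TPM in WT normal libraries. The labels of the 6 drought libraries give genomic DNA as molecule, while their titles name RNA sequencing. Drought and normal libraries also fall in separate runs of sample numbers. Any other difference between these sets of libraries cannot be told apart from drought in the comparisons of drought with normal. The implied depth was 5.79 to 11.95 gigabases per library, and read coverage of the members ran from 25.9 per base for SAPK10 to 1314 per base for SAPK2. Replicates spread more after drought, with a median SD per gene on the log2 scale of 0.25 in OE drought and 0.27 in WT drought against 0.075 in OE normal and 0.074 in WT normal libraries, so drought and normal libraries were weighted separately in the fit. The summed level of 4 listed root markers was 1649 to 2988 TPM in OE drought, 3098 to 4365 TPM in WT drought, 5595 to 5860 TPM in OE normal and 6005 to 6262 TPM in WT normal libraries. With drought 3 of the 4, among them the silicon transporters LSI1 and LSI2, fell in both genotypes (2 of 4 in WT roots after median-ratio scaling), whereas LOC_Os12g36830, which had no matched name, rose by 3.88 in OE roots (limma adjusted p = 3.2e-06) and 2.55 in WT roots (adjusted p = 8.7e-05) on the log2 scale. The summed level of 3 listed green shoot markers was 43.6 to 186 TPM in OE drought, 317 to 592 TPM in WT drought, 328 to 330.3 TPM in OE normal and 799 to 1115 TPM in WT normal libraries, and none of the 7 markers was at 0 in any library. These markers moved with the groups compared, not all in 1 direction, and their part in the SAPK results was not tested. In bulk roots, fewer cells of a type and less RNA per cell cannot be told apart.

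The level of each kinase, per transcript length, ranked differently in droughted and watered roots. SAPK2 was the most abundant member in both drought groups, at 246 ± 56.8 TPM in OE drought and 283 ± 22.0 TPM in WT drought (SD, n = 3 each). SAPK3 was the most abundant in both normal groups, at 142 ± 3.81 TPM in OE normal (SD, n = 2) and 146 ± 2.48 TPM in WT normal (SD, n = 3). SAPK10 was lowest in each of the 4 groups, at 8.52 ± 2.57 TPM in OE drought, 7.22 ± 3.15 TPM in WT drought, 9.83 ± 0.068 TPM in OE normal and 9.3 ± 0.69 TPM in WT normal roots.

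In WT normal roots the order was SAPK3, SAPK8, SAPK4, SAPK2, SAPK9, SAPK7, SAPK5, SAPK6, SAPK1 and SAPK10, and only SAPK6 and SAPK1 overlapped among the 9 pairs of neighbours. OE normal roots had the same first 3 members, and among their 9 neighbour pairs only SAPK9 and SAPK2 overlapped. In OE drought roots the order was SAPK2, SAPK1, SAPK6, SAPK4, SAPK7, SAPK8, SAPK3, SAPK9, SAPK5 and SAPK10, with 4 of 9 neighbour pairs overlapping. In WT drought roots SAPK2 stood clear of SAPK3, SAPK4 and SAPK8, and 7 of 9 neighbour pairs overlapped, so the order of the lower members there is not resolved by these libraries.

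**Figure D1:**
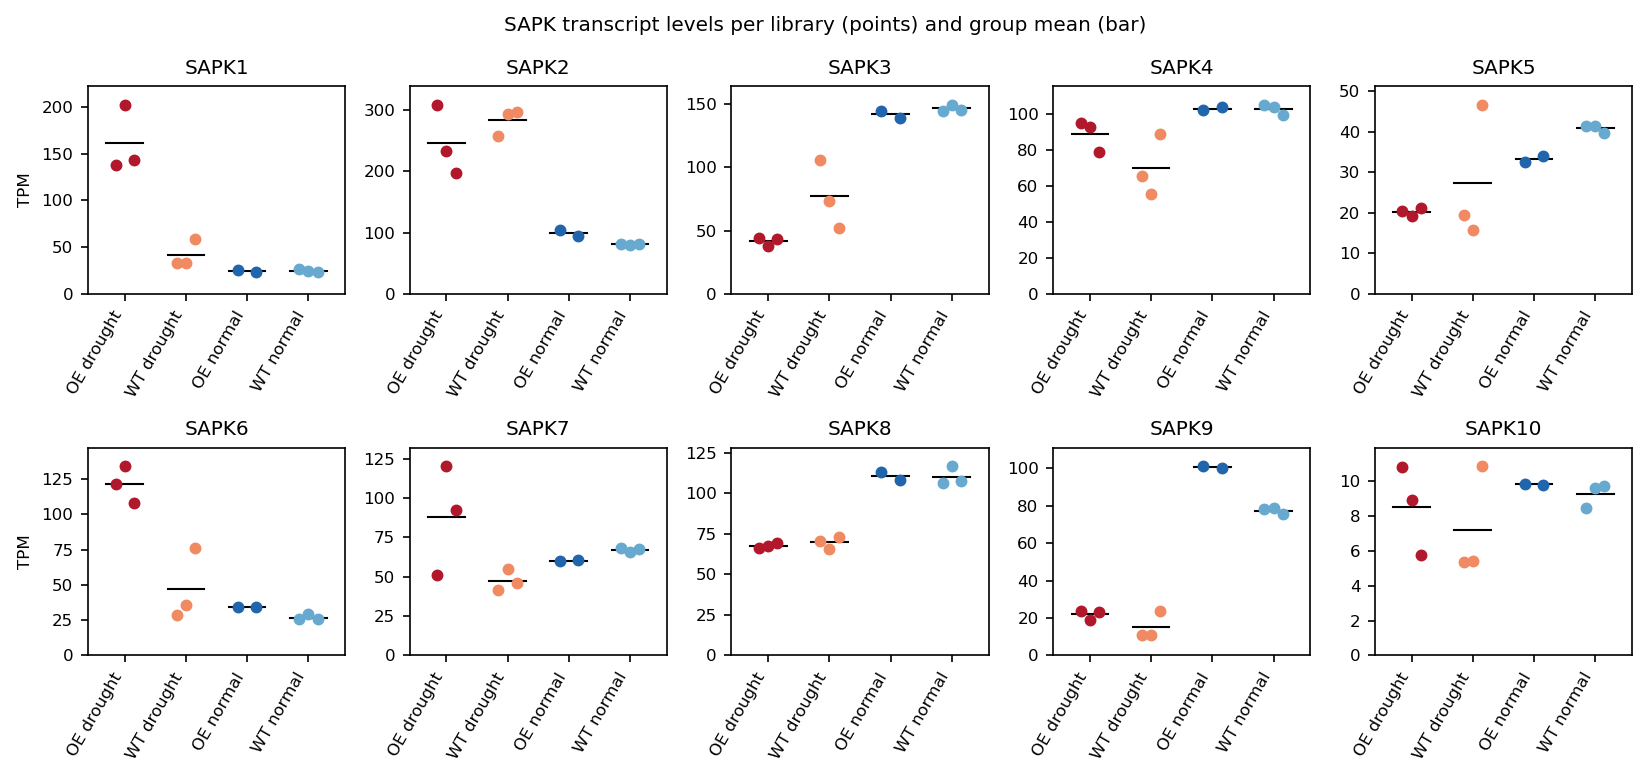
TPM of each SAPK in every library, with points for libraries and a bar for the group mean, in panels whose axes start at 0 and have their own scale. SAPK1 and SAPK6 stand highest in the 3 OE drought libraries, SAPK2 is high in both drought groups, and SAPK9 is low in both.

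The ABA-activated members made up a smaller part of the family's transcripts after drought. SAPK8 to SAPK10 together were 11.4%, 10.2% and 12.5% of the summed SAPK level in OE drought libraries and 13.6%, 12.8% and 13.9% in WT drought libraries. They were 30.8% in both OE normal libraries and 28.1%, 29.3% and 28.6% in WT normal libraries. No drought library overlapped a normal one in this share, in either genotype. The share is a ratio within a library and does not change with its scaling, but it shows unequal change among members and not which of them moved. A lower mean share after drought in both genotypes was not particular to SAPK8 to SAPK10. SAPK3, SAPK4 and SAPK5 had it too, with SAPK3 at 4.88% in OE drought and 11.5% in WT drought, against 19.8% in OE normal and 21.3% in WT normal. SAPK1, SAPK2 and SAPK6 had a higher mean share after drought in both genotypes, and SAPK7 only in OE.

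The summed level of SAPK8 to SAPK10 was 98.2 ± 2.43 TPM in OE drought and 92.2 ± 13.6 TPM in WT drought (SD, n = 3 each), against 221 ± 4.29 TPM in OE normal (n = 2) and 197 ± 6.85 TPM in WT normal (n = 3). The summed level of SAPK1 to SAPK7 was 768 ± 77.8 TPM in OE drought and 593 ± 62.6 TPM in WT drought, against 497 ± 9.92 TPM in OE normal and 490 ± 6.85 TPM in WT normal. The lower share thus had a lower subclass III sum and a higher sum of the other members on the TPM scale. Subclass II alone held 51.8% ± 3.53 of the family in OE drought and 59.0% ± 5.39 in WT drought, against 37.0% ± 1.04 in OE normal and 36.7% ± 0.39 in WT normal. Subclass I held 36.8% ± 3.49 in OE drought, 27.6% ± 4.96 in WT drought, 32.2% ± 1.03 in OE normal and 34.6% ± 0.31 in WT normal.

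**Figure D2:**
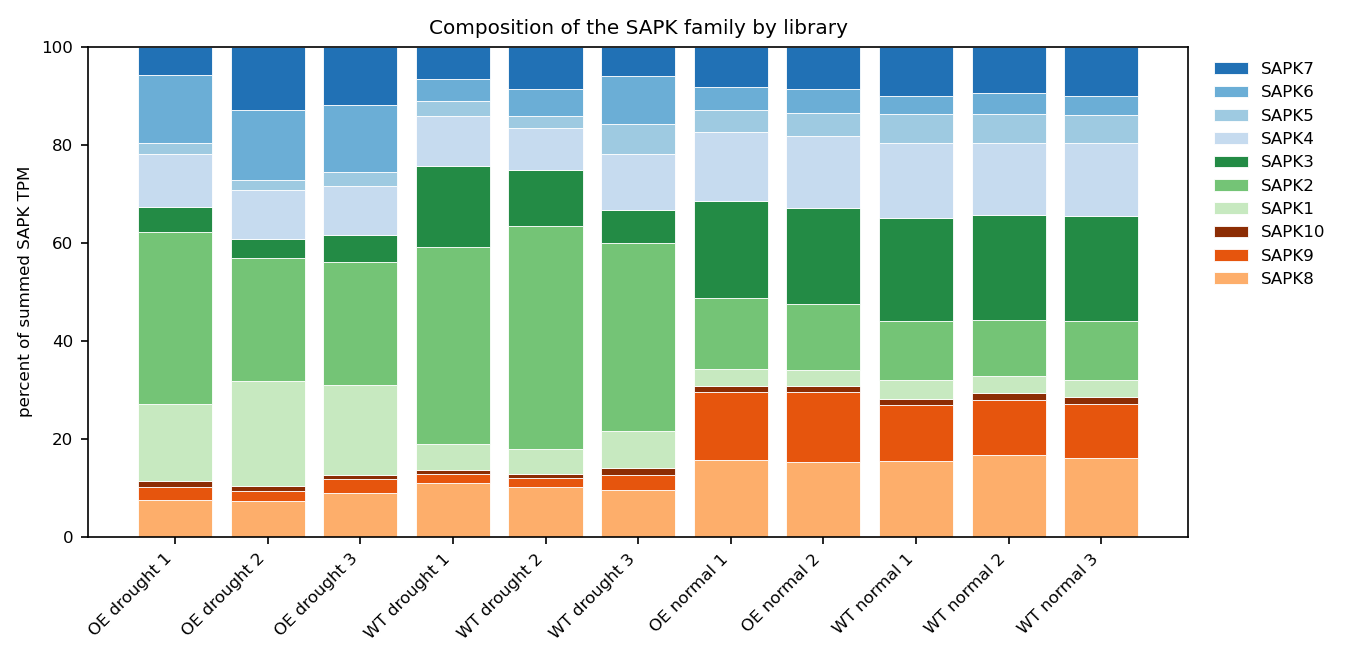
Stacked bars give each SAPK as a percent of the summed SAPK TPM in each of the 11 libraries. The orange block of SAPK8 to SAPK10 is 10.2% to 13.9% in drought libraries and 28.1% to 30.8% in normal libraries.

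As deposited, most members differed between drought and normal roots in both genotypes, in both directions. In OE roots 3 of 10 members rose and 4 fell, where 73.3% of all 23699 tested genes were called (20.8% higher and 52.5% lower). In WT roots 3 rose and 6 fell, where 64.3% were called (20.5% higher and 43.7% lower). The member count was near that share in OE roots, with 7 of 10 called, and above it in WT roots, with 9 of 10 called. Drought and normal libraries did not overlap for 8 of 10 members in OE roots, where 82.8% of genes did not, and for 7 of 10 in WT roots, where 73.6% did not. The median log2 difference of the members was -0.22 in OE roots and -0.54 in WT roots, beside -0.56 and -0.35 over all genes tested.

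Because the median gene was lower after drought on the TPM scale, each call was also computed after median-ratio scaling, which sets the typical gene near no change. The share of called genes that were higher is 28.4% for OE drought against normal as deposited and 52.3% after this scaling, and 32% and 52.1% for WT. Under it, 5 members were higher and 2 lower in OE roots, where 66.7% of genes were called (34.9% higher and 31.8% lower). It gave 3 higher and 2 lower in WT roots, where 56.3% were called (29.3% higher and 27% lower). SAPK1, SAPK2 and SAPK6 rose and SAPK3 and SAPK9 fell with drought in both genotypes under both scalings. The falls of SAPK4, SAPK5, SAPK7 and SAPK8 held only as deposited.

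As deposited, OE and WT roots differed in 3 of 10 members after drought and in 3 of 10 in normal conditions. The count was near the share of all genes called in normal conditions and somewhat above it after drought. After drought, 2 members were higher in OE than in WT roots (SAPK1 and SAPK6) and 1 was lower (SAPK3), where 20.7% of genes were called, 6.97% higher and 13.8% lower. In normal conditions 3 members were higher in OE than in WT roots (SAPK2, SAPK6 and SAPK9) and none was lower, where 31.2% were called, 19% higher and 12.2% lower. None of the normal differences reached 2-fold, and without OE normal replicate 1 a single member passed. With equal library weights in limma, the calls of SAPK2, SAPK6 and SAPK9 were all lost and 417 genes passed. The members' median log2 difference was 0.30 after drought and 0.004 in normal conditions, beside -0.20 and 0.026 over all genes tested. Of the called genes, 33.6% were higher after drought as deposited and 57.9% after median-ratio scaling. With median-ratio scaling 4 members were higher and none lower after drought, where 18.7% of genes were called (10.8% higher and 7.88% lower). OE and WT libraries did not overlap for 3 of 10 members after drought, where 40% of genes did not, and for 7 of 10 in normal conditions, where 57% did not.

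The drought comparison of OE with WT rests on libraries that differ. It held 4917 called genes with all libraries, and 2793, 1942, 2145 and 2417 without OE drought replicate 1, OE drought replicate 2, WT drought replicate 1 and WT drought replicate 2. Without WT drought replicate 3 it held 7443 genes and 5 members. WT drought replicate 3 correlated with the other libraries of its group at 0.93 and 0.94 across genes, while those correlated with each other at 0.98. It was the highest of its group for 8 of 10 members and the lowest for SAPK3, and for 6 members it lay toward the OE drought mean.

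**Figure D3:**
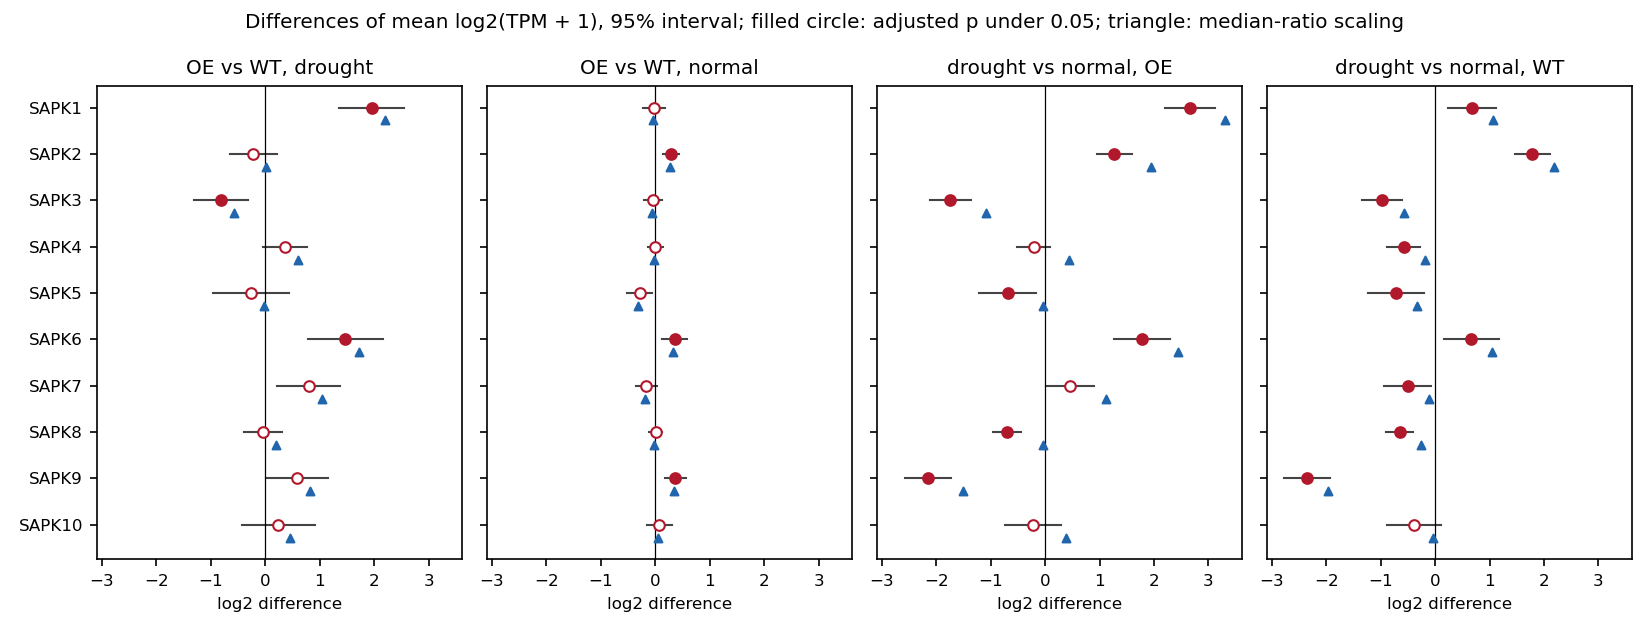
Log2 differences of mean log2(TPM + 1) for each SAPK in 4 comparisons, with 95% intervals as lines. Filled circles passed an adjusted p of 0.05, and triangles give the same difference after median-ratio scaling, which lies to the right of the circle for every member in the 3 panels that involve drought.

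Among the ABA-activated members, SAPK8, a kinase that phosphorylates TRAB1, was at 66.3, 67.7 and 69.2 TPM in OE drought libraries and 70.5, 65.7 and 73.1 TPM in WT drought libraries. It was at 113 and 108 TPM in OE normal libraries and 106, 117 and 108 TPM in WT normal libraries. The drought groups overlapped each other, the normal groups overlapped each other, and each drought library was below each normal one. SAPK8 was lower after drought by a log2 difference of -0.70 ± 0.12 in OE roots (SE, limma adjusted p = 0.000259) and -0.65 ± 0.11 in WT roots (adjusted p = 0.000529). After median-ratio scaling these were -0.04 and -0.26 and did not pass (adjusted p = 0.753 and 0.0667), and in OE roots the fall as deposited was close to that of the median gene, -0.56. OE did not differ detectably from WT, with a log2 difference of -0.04 (95% interval -0.38 to 0.30) after drought and 0.0065 (95% interval -0.11 to 0.12) in normal conditions.

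SAPK9, known in rice as a positive regulator of drought tolerance, showed the largest fall of the family in both genotypes. It was at 23.5, 19.2 and 23.2 TPM in OE drought libraries, against 101 and 100.0 TPM in OE normal libraries. It was at 10.8, 11.2 and 23.9 TPM in WT drought libraries, against 78.2, 78.7 and 75.4 TPM in WT normal libraries. No drought library overlapped a normal one, and WT drought replicate 3 was about level with the OE drought libraries. The log2 difference was -2.15 ± 0.20 in OE roots (adjusted p = 3.3e-06) and -2.36 ± 0.19 in WT roots (adjusted p = 2.5e-06), and it stayed past the threshold after median-ratio scaling at -1.50 and -1.97.

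In normal conditions SAPK9 was higher in OE than in WT roots by 0.37 ± 0.088 (adjusted p = 0.00835), with both OE libraries above all 3 WT libraries. After drought the log2 difference was 0.58 ± 0.26 (adjusted p = 0.133). It passed without WT drought replicate 3, at 0.93 (adjusted p = 0.00144), and with median-ratio scaling, at 0.82 (adjusted p = 0.0415).

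SAPK9 shares genomic sequence with another locus. It lies on the minus strand of chromosome 12 at 24458153 to 24462001, and the plus-strand locus LOC_Os12g39620 at 24454957 to 24459824 shares 1672 bp with it. Neither the build of these coordinates nor whether reads were counted by strand is known here, so reads in the shared stretch cannot be assigned. LOC_Os12g39620 stood at 96.5, 89.4 and 78.0 TPM in OE drought and 42.0, 61.8 and 67.9 TPM in WT drought libraries. In normal roots it stood at 31.6 and 31.3 TPM in OE and 25.1, 23.3 and 23.3 TPM in WT libraries. It rose with drought in OE roots (1.45 ± 0.15, adjusted p = 8.9e-06) and in WT roots (1.20 ± 0.15, adjusted p = 5.01e-05), opposite to SAPK9, and was higher in OE than in WT roots after drought (0.63 ± 0.20, adjusted p = 0.0461) and in normal conditions (0.38 ± 0.069, adjusted p = 0.00161). Its part in the SAPK9 values was not tested.

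**Figure D4:**
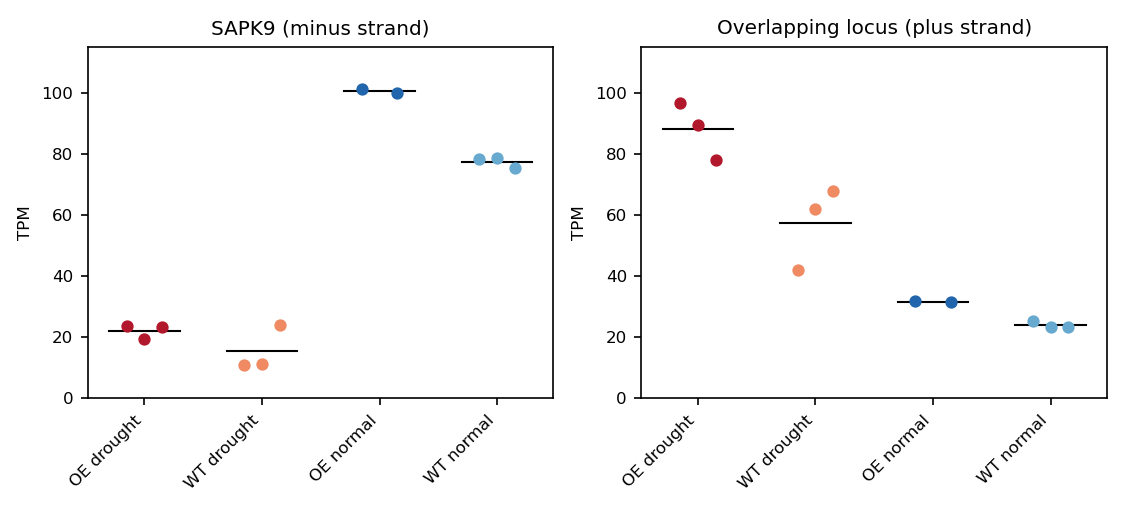
TPM per library of SAPK9, left, and of the locus that overlaps it on the other strand, right, with bars for group means. SAPK9 is at 10.8 to 23.9 TPM in drought and 75.4 to 101 TPM in normal libraries, while the overlapping locus is at 42.0 to 96.5 TPM in drought and 23.3 to 31.6 TPM in normal libraries.

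SAPK10, a further ABA-activated kinase, had few transcripts. It was at 10.9, 8.96 and 5.77 TPM in OE drought libraries and 5.36, 5.45 and 10.9 TPM in WT drought libraries. Its values were 9.88 and 9.79 TPM in OE normal and 8.50, 9.64 and 9.76 TPM in WT normal libraries. Every pair of groups overlapped except the normal ones, where both OE libraries were just above the 3 WT libraries. No comparison passed, with log2 differences of -0.22 (95% interval -0.73 to 0.29) for drought in OE roots and -0.39 (-0.89 to 0.11) for drought in WT roots. The last of these passed without WT drought replicate 3, at -0.68 (adjusted p = 0.018).

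In subclass II, SAPK1 showed the largest rise of the family in OE roots. It was at 138, 202 and 144 TPM in OE drought libraries, against 25.3 and 23.4 TPM in OE normal libraries. It was at 33.6, 33.0 and 58.5 TPM in WT drought libraries, against 27.1, 24.2 and 23.1 TPM in WT normal libraries. Each OE drought library was more than 2-fold above each other library, and the WT drought libraries were above the normal ones by less. Drought raised SAPK1 by 2.66 ± 0.21 in OE roots (adjusted p = 1.1e-06) and by 0.68 ± 0.20 in WT roots (adjusted p = 0.0122). The WT rise was 0.41 without WT drought replicate 3 and no longer passed (adjusted p = 0.0722).

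OE drought roots had 3.87-fold the mean SAPK1 level of WT drought roots, a log2 difference of 1.96 ± 0.27 (adjusted p = 0.00108), and this passed under each of the 19 alternatives at 1.79 to 2.22. In normal conditions the difference was -0.025 (95% interval -0.23 to 0.18).

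SAPK2, a kinase that rice studies place in ABA responses and drought tolerance, rose with drought in both genotypes. It was at 308, 233 and 197 TPM in OE drought libraries, against 105 and 94.3 TPM in OE normal libraries. It was at 258, 294 and 297 TPM in WT drought libraries, against 82.2, 80.0 and 81.0 TPM in WT normal libraries. Drought and normal libraries did not overlap, and the drought libraries of OE and WT did. The rise was 1.27 ± 0.15 in OE roots (adjusted p = 1.8e-05) and 1.79 ± 0.14 in WT roots (adjusted p = 2.4e-06), and both passed under each alternative. SAPK2 was higher in OE than in WT roots in normal conditions by 0.29 ± 0.067 (adjusted p = 0.00659), at 0.22 without OE normal replicate 1 (adjusted p = 0.0628), and after drought its difference was -0.22 (95% interval -0.65 to 0.21).

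SAPK3, the most abundant member of watered roots, fell with drought in both genotypes. It was at 44.3, 37.7 and 43.6 TPM in OE drought libraries, against 144 and 139 TPM in OE normal libraries. It was at 106, 73.4 and 52.0 TPM in WT drought libraries, against 145, 149 and 145 TPM in WT normal libraries. No drought library overlapped a normal one, and the OE drought libraries were all below the WT drought ones. The log2 difference was -1.74 ± 0.17 in OE roots (adjusted p = 5.4e-06) and -0.98 ± 0.17 in WT roots (adjusted p = 0.000417), and both passed under each alternative. SAPK3 was lower in OE than in WT roots after drought by -0.81 ± 0.22 (adjusted p = 0.0276). Without OE drought replicate 1 or 2, or WT drought replicate 1 or 2, that call was lost (adjusted p = 0.063, 0.113, 0.108 and 0.0802, at values of -0.85 to -0.55). After median-ratio scaling it was -0.57 (adjusted p = 0.101).

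In subclass I, SAPK6 behaved most like SAPK1. It was at 122, 134 and 108 TPM in OE drought libraries, against 34.6 and 34.5 TPM in OE normal libraries. It was at 28.9, 35.7 and 75.9 TPM in WT drought libraries, against 25.6, 29.2 and 25.5 TPM in WT normal libraries. The OE drought libraries stood above all others, and of the WT drought libraries the third stood above the other two, which reached down to the WT normal range. Drought raised SAPK6 by 1.78 ± 0.23 in OE roots (adjusted p = 4.7e-05) and by 0.66 ± 0.23 in WT roots (adjusted p = 0.0259), the second of which was 0.26 without WT drought replicate 3 (adjusted p = 0.18). The WT call was also lost with equal library weights (adjusted p = 0.0643) and with only the libraries compared (adjusted p = 0.071).

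SAPK6 was higher in OE than in WT roots after drought by 1.47 ± 0.31 (adjusted p = 0.00885), or 2.59-fold in mean TPM, and this passed under each of the 19 alternatives at 1.20 to 1.88. It was also higher in normal conditions, by 0.36 ± 0.11 (adjusted p = 0.0256), with both OE libraries above the 3 WT libraries. That call was lost under 7 of 19 alternatives, among them leaving out either OE normal library or WT normal replicate 1 or 3, and the difference was 0.32 to 0.42 over all 19.

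SAPK4, linked to salt tolerance in rice, changed by less than 2-fold with drought. It was at 95.1, 92.8 and 78.8 TPM in OE drought libraries, against 102 and 104 TPM in OE normal libraries. It was at 65.2, 55.7 and 88.9 TPM in WT drought libraries, against 105, 104 and 99.6 TPM in WT normal libraries. Both drought groups lay below their normal group. The drought difference was -0.21 ± 0.14 in OE roots (adjusted p = 0.187) and -0.57 ± 0.14 in WT roots (adjusted p = 0.0036), whereas median-ratio scaling gave 0.45 in OE roots (adjusted p = 0.0178) and -0.18 in WT roots (adjusted p = 0.307). OE and WT overlapped in both conditions, with a difference of 0.36 ± 0.19 after drought (adjusted p = 0.183) that was 0.55 without WT drought replicate 3 (adjusted p = 0.02). The minus-strand locus LOC_Os01g64980 shares 1001 bp with SAPK4 and averaged 6.17 TPM in OE drought, 9.09 TPM in WT drought, 13.2 TPM in OE normal and 12.4 TPM in WT normal libraries, below SAPK4 in every group.

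SAPK5 was at 20.4, 19.3 and 21.3 TPM in OE drought libraries, against 32.5 and 34.1 TPM in OE normal libraries. It was at 19.5, 15.9 and 46.6 TPM in WT drought libraries, against 41.6, 41.5 and 39.7 TPM in WT normal libraries. WT drought replicate 3 was above the normal libraries and the other 2 drought replicates were below them. The drought difference was -0.69 ± 0.24 in OE roots (adjusted p = 0.0217) and -0.72 ± 0.23 in WT roots (adjusted p = 0.0188). The OE call was lost without any 1 of the OE drought libraries (adjusted p up to 0.0808), and the WT call was lost without WT drought replicate 1 or 2, at -0.56 (adjusted p = 0.112) and -0.42 (adjusted p = 0.178). Without WT drought replicate 3 the WT value was -1.17. Between OE and WT the difference was -0.26 ± 0.32 after drought (adjusted p = 0.598) and -0.29 ± 0.11 in normal conditions (adjusted p = 0.0644), and the normal one passed under 5 of 19 alternatives, 2 of which left out a single WT drought library (adjusted p = 0.00315 without replicate 3, and 0.0302 without replicate 2). The drought value of OE against WT was 0.19 when WT drought replicate 3 was left out (adjusted p = 0.393). After median-ratio scaling the drought differences were -0.05 in OE and -0.33 in WT roots and did not pass.

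SAPK7 was at 50.9, 120.1 and 92.4 TPM in OE drought libraries, against 59.7 and 60.3 TPM in OE normal libraries. It was at 41.6, 54.7 and 45.9 TPM in WT drought libraries, against 68.2, 65.8 and 67.8 TPM in WT normal libraries. OE drought replicate 1 lay among the WT drought values and the other 2 OE drought libraries lay above all others. The drought difference was 0.46 ± 0.20 in OE roots (adjusted p = 0.0574) and -0.50 ± 0.19 in WT roots (adjusted p = 0.0405). The WT call was lost under 12 of 19 alternatives, among them leaving out any WT drought library, either OE normal library or WT normal replicate 1 or 3 (adjusted p of 0.0528 to 0.164). The OE value was 0.80 without OE drought replicate 1 (adjusted p = 0.00131) and 1.11 after median-ratio scaling (adjusted p = 0.000765). OE exceeded WT after drought by 0.80 ± 0.26 without passing (adjusted p = 0.053). Without OE drought replicate 1 that difference was 1.14 (adjusted p = 0.0057), and after median-ratio scaling it was 1.04 (adjusted p = 0.0269). In normal conditions it was -0.16 ± 0.090 (adjusted p = 0.203), and this passed without OE drought replicate 1 (adjusted p = 0.0496).

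The interaction asks whether the drought response of OE roots differed from that of WT roots. It passed for 4 of 10 members, 3 with a higher and 1 with a lower response in OE roots, where 21% of genes were called, 5.9% higher and 15.1% lower. SAPK1 had an interaction of 1.98 ± 0.29 (adjusted p = 0.00133), and it alone passed under each of the 18 alternatives run, at 1.81 to 2.25. SAPK6 had 1.12 ± 0.33 (adjusted p = 0.0341), SAPK7 had 0.96 ± 0.28 (adjusted p = 0.0321) and SAPK3 had -0.76 ± 0.24 (adjusted p = 0.0417). These 3 were lost under 9, 10 and 16 of the 18 alternatives. The member count was 1 without OE drought replicate 2, WT drought replicate 1, WT drought replicate 2 or OE normal replicate 1, and 2 without OE drought replicate 3, OE normal replicate 2, WT normal replicate 1 or WT normal replicate 3. The count of genes was 4981 with all libraries, and 2491, 2693 and 2759 without OE drought replicate 2, WT drought replicate 1 and WT drought replicate 2. Without WT drought replicate 3 both counts were larger, at 6 members and 7112 genes.

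For the ABA-activated members the interaction was -0.047 (95% interval -0.41 to 0.32) for SAPK8, 0.21 (-0.39 to 0.81) for SAPK9 and 0.16 (-0.55 to 0.88) for SAPK10, and none passed. The intervals leave room for differences in either direction. SAPK9 passed without WT drought replicate 3, at 0.56 (adjusted p = 0.024), as did SAPK4 at 0.55 (adjusted p = 0.0268), and SAPK2 passed without OE drought replicate 1 at -0.69 (adjusted p = 0.0498). The members' median interaction was 0.19, beside -0.23 over all genes tested, and with median-ratio scaling 3 members passed, all higher, where 17.5% of genes were called, 8.99% higher and 8.52% lower. Of called genes, 28.1% were higher as deposited and 51.3% after scaling.

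**Figure D5:**
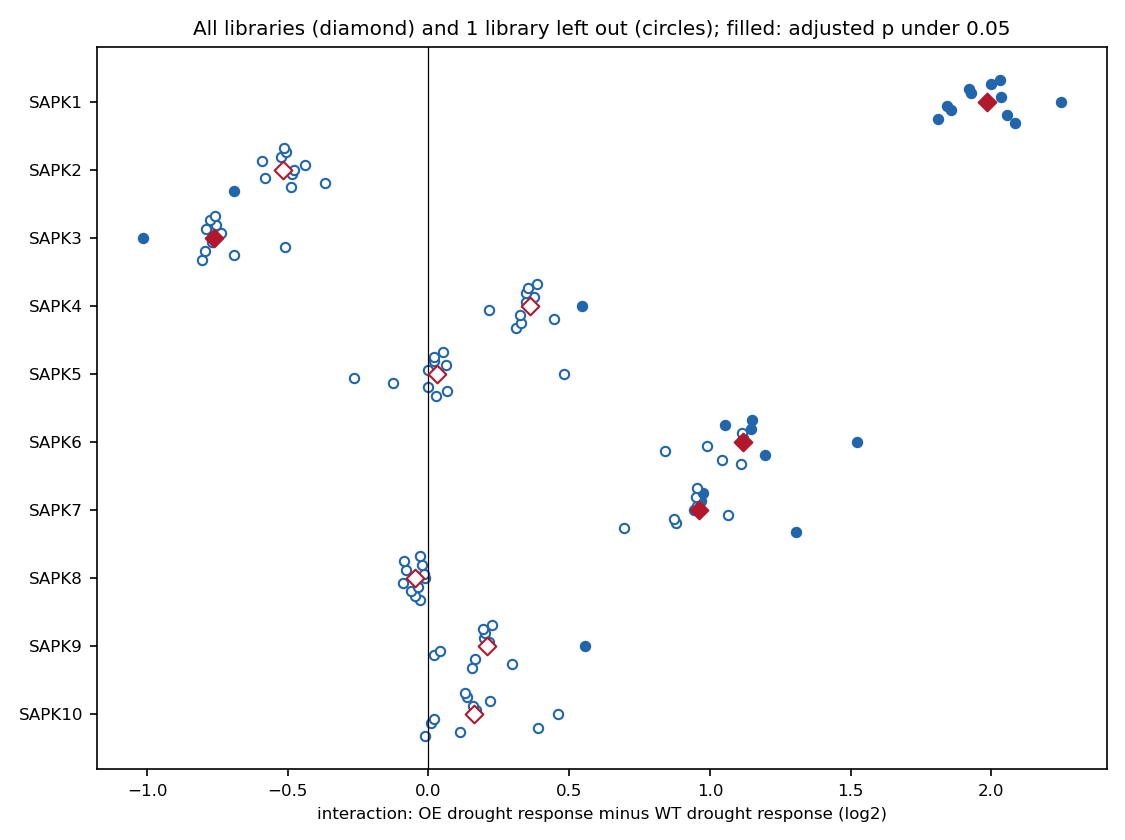
Interaction of each SAPK on the log2 scale with all libraries (diamonds) and with 1 library left out (circles, spread vertically for visibility). Filled symbols passed an adjusted p of 0.05. SAPK1 stays between 1.81 and 2.25, while most circles of SAPK3 are open and those of SAPK6 and SAPK7 are mixed.

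Upstream of the kinases, the clade A phosphatases, which dephosphorylate and hold back SnRK2 kinases, were higher in OE than in WT roots after drought at 6 of 8 loci counted, where 6.97% of all tested genes were higher, with a median log2 difference of 1.59 beside -0.20 over all genes tested. Of 9 listed loci, LOC_Os05g46040 had no matched name and is counted by identifier. PP2C51 is left out of these counts and of those for drought and the interaction, because it reached 1 TPM only in OE drought libraries 1 and 2, at 1.84 and 1.21 TPM, and was tested only through the group where it is high. PP2C68 averaged 341 TPM in OE drought against 37.7 TPM in WT drought libraries (3.17 ± 0.24, adjusted p = 3.8e-05). PP2C30 averaged 220 TPM in OE drought against 22.5 TPM in WT drought libraries (3.24 ± 0.32, adjusted p = 0.000168), and PP2C06 averaged 189.8 TPM in OE drought against 75.9 TPM in WT drought libraries (adjusted p = 0.000603). The differences of PP2C68 and PP2C30 were larger than the 1.96 of SAPK1.

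PP2C49 was at 60.1 to 90.8 TPM in OE drought and 8.83 to 21.4 TPM in WT drought, against 0.61 to 0.83 TPM in OE normal and 0.69 to 0.97 TPM in WT normal libraries. It passed the filter on low values only through drought libraries, so it too is left out of the drought counts. Of the other 7 loci, drought raised 6 in OE roots, where 20.8% of genes were higher, and 4 in WT roots, where 20.5% were, and none was called lower. Their median log2 differences were 2.09 in OE and 0.58 in WT roots, beside -0.56 and -0.35 over all genes. PP2C30 averaged 220 TPM in OE drought against 3.42 TPM in OE normal libraries, and 22.5 TPM in WT drought against 1.54 TPM in WT normal libraries. In normal conditions all 9 listed loci were counted, and 2 were higher in OE than in WT roots (PP2C68 at 1.14 ± 0.081 and PP2C30 at 0.80 ± 0.11). Another 1 was lower (PP2C09 at -0.31 ± 0.11, adjusted p = 0.0451). These counts were near the shares of all genes, 19% higher and 12.2% lower. The interaction passed for 6 of 8 loci, all higher, where 5.9% of genes were called higher, with a median of 1.68 beside -0.23 over all genes. With median-ratio scaling 6 of 8 were higher for OE against WT after drought, where 10.8% of genes were higher, and 6 of 8 for the interaction, where 8.99% were. Under it drought raised 7 of 7 in OE roots, where 34.9% of genes were higher, and 6 of 7 in WT roots, where 29.3% were.

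Of 11 receptor loci looked for, 6 were high enough to test and 1 of those had a matched name, PYL11, which did not pass in any comparison. It averaged 59.2 TPM in OE drought, 68.5 TPM in WT drought, 69.3 TPM in OE normal and 67.4 TPM in WT normal libraries. Its log2 difference between OE and WT after drought was -0.16 ± 0.27 (adjusted p = 0.705). The other 5 loci tested are counted by identifier only, since no table used here annotates them. With drought 4 of them were lower in OE roots, where 52.5% of genes were lower, and all 5 in WT roots, where 43.7% were. The counts were the same after median-ratio scaling, where 31.8% of genes were lower in OE and 27% in WT roots. After drought LOC_Os03g18600 (-1.84, adjusted p = 0.0106) and LOC_Os05g39580 (-1.57, adjusted p = 0.0321) were lower in OE than in WT roots, where 13.8% of genes were lower, and none of the 5 was called higher as deposited. After median-ratio scaling LOC_Os05g39580 no longer passed (-1.37, adjusted p = 0.062) and LOC_Os06g36670 was called higher in OE roots (1.48, adjusted p = 0.047). In normal conditions only LOC_Os02g15640 passed (-0.22, adjusted p = 0.0221), where 12.2% of genes were lower. The interaction went both ways, at 1.37 for LOC_Os06g36670 (adjusted p = 0.0463) and -1.94 for LOC_Os03g18600 (adjusted p = 0.00957), where 5.9% of genes were higher and 15.1% lower. After median-ratio scaling both still passed, and LOC_Os02g15640 did too, at 0.58 (adjusted p = 0.047).

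Downstream, 3 of 9 listed transcription factor loci had a matched name, of which VP1 was too low to test. Over the 8 tested loci, 4 were higher and 1 was lower in OE than in WT roots after drought, with a median of 0.57. In the drought comparisons LOC_Os07g48660 is left out, as it was tested only through normal libraries, and of the other 7 loci 2 were higher and 4 lower in OE roots and 2 were higher and 5 lower in WT roots. The shares of all genes were 6.97% higher and 13.8% lower for OE against WT after drought, 20.8% and 52.5% for drought in OE, and 20.5% and 43.7% for drought in WT. BZIP23, a bZIP activator of drought-responsive genes, averaged 240 TPM in OE drought and 113 TPM in WT drought, against 61.5 TPM in OE normal and 60.2 TPM in WT normal libraries. It rose with drought by 1.94 ± 0.15 in OE roots (adjusted p = 1.1e-06) and 0.86 ± 0.15 in WT roots (adjusted p = 0.00043), and was higher in OE than in WT roots after drought by 1.11 ± 0.20 (adjusted p = 0.00397). TRAB1, the bZIP factor that SAPK8 to SAPK10 phosphorylate, averaged 33.8 TPM in OE drought against 20.4 TPM in WT drought libraries, a difference of 0.70 ± 0.18 (adjusted p = 0.018). With drought TRAB1 fell by 0.54 in WT roots (adjusted p = 0.00383) and did not pass in OE roots at 0.17, whereas with median-ratio scaling it passed in OE roots at 0.82 and did not in WT roots at -0.15. Neither BZIP23 nor TRAB1 differed detectably between OE and WT in normal conditions.

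The catalytic subunits of SnRK1, the related energy-sensing kinase, offer a comparison within the wider kinase family. OSK35 was higher in OE than in WT roots after drought, at 112 TPM in OE against 68.4 TPM in WT drought libraries (0.69 ± 0.20, adjusted p = 0.0353). OSK24 averaged 43.0 TPM in OE drought against 30.4 TPM in WT drought libraries (0.50 ± 0.22, adjusted p = 0.124), and it passed after median-ratio scaling at 0.73 (adjusted p = 0.0284). SNRK1A averaged 27.4 TPM in OE drought against 39.4 TPM in WT drought libraries (-0.51 ± 0.17, adjusted p = 0.0604). With drought OSK24 rose in OE roots by 0.52 (adjusted p = 0.0138) and did not pass in WT roots at 0.028 (adjusted p = 0.891), where median-ratio scaling gave 0.42 (adjusted p = 0.0319). OSK35 rose in OE roots by 0.38 (adjusted p = 0.0406) and was lower in WT roots by -0.41 (adjusted p = 0.0314), a fall that did not pass after median-ratio scaling at -0.015. SNRK1A fell by 1.24 in OE roots and by 0.66 in WT roots, the second of which did not pass after median-ratio scaling at -0.27. The interaction was 0.80 for OSK35 (adjusted p = 0.0237), 0.49 for OSK24 (adjusted p = 0.15) and -0.57 for SNRK1A (adjusted p = 0.0476). After median-ratio scaling OSK24 passed at 0.75 (adjusted p = 0.0329) and SNRK1A did not at -0.32 (adjusted p = 0.184).

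Profiles over the 4 group means were compared by the root mean square difference of centred log2(TPM + 1), a description over 4 points with no test. Among 14 named pathway genes, the closest to SAPK1 was PP2C09 at 0.23 and the closest to SAPK6 was PP2C06 at 0.17, while SAPK1 and SAPK6 lay 0.31 apart. BZIP23 was closest to SAPK2 at 0.48, SNRK1A to SAPK3 at 0.23, and OSK35 to SAPK7 at 0.043. SAPK8 lay closest to SAPK5, at 0.13, and SAPK10 to SAPK4, at 0.068. The measure is not scaled by the size of change, so members that changed little lie close together whatever their subclass. The SE of the SAPK10 drought difference in OE roots, 0.23, was above its distance to SAPK4. Among the members and the 14 named pathway genes, SAPK9 was the most isolated, with SAPK3 at 0.68 and SNRK1A at 0.76 as its closest profiles. Listed loci without a matched name were not compared. One of them, the receptor locus LOC_Os02g15640, had drought differences near those of SAPK9, at -2.27 in OE and -2.60 in WT roots, so SAPK9 may have closer profiles there.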

How the data were processed

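The 11 RNA libraries were analysed, and the 18 ATAC-seq samples were not. Tools named without roles in the submitters' processing notes are StringTie 1.3.6, STAR 1.5.2, SAMtools 1.9, FastQC 0.11.8, fastp and DESeq2, besides MACS2 2.1.0, Picard 2.60, Bowtie2 2.2.6 and DiffBind. Build, annotation and strandedness: not given in the sources used here. The tested values were TPM as deposited by the authors, summing to 1000000 per library. The FPKM values, also deposited, were an alternative measure. The ratio of deposited coverage to FPKM gave the implied depth in gigabases. No read counts were used, so counting intervals are not given.

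The test was limma 3.58.1 (R 4.3.3) on log2(TPM + 1), which understates changes of low genes, for 23699 loci that reached 1 TPM in 2 or more libraries. A single model held the means of the 4 groups, with a mean-variance trend, two-sided tests, Benjamini-Hochberg adjustment over all tested genes and a threshold of 0.05. Weights were estimated for drought (0.341) and normal (3.64) libraries. An earlier account of these data used 1 shared spread, which is too wide for normal and too narrow for drought libraries. The procedure was tested on simulated data. Joining and plotting used pandas 2.3.3, numpy 2.4.6 and matplotlib 3.10.9 under Python 3.11.15.

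The text names all 10 members, up to 3 named genes per pathway list by lowest adjusted p, and the closest profiles. Names were accepted by symbol, chromosome, position within 5 Mb and length ratio of 0.9 to 1.1, except SAPK9. List loci without an accepted name are counted by identifier, and a locus that would fail the filter without either side of a comparison is left out of that comparison's list counts. The 2 overlapping loci and the identifiers of unnamed loci were named after their values were seen. Members and lists were chosen with earlier results of these data known. Alternatives were equal weights, only the libraries compared (not for the interaction), a pseudocount of 0.1, no filter, FPKM, median-ratio scaling, no trend, a replicate block and leaving out each library.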

Additional observations from a re-analysis of the deposited data

Results flagged for a closer look

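The drought response of OE roots differed from that of WT roots, by the interaction test over all libraries, for 4 members. In that test 21% of all tested genes were called, 5.9% higher and 15.1% lower. The difference in response (OE minus WT, log2) was 1.98 for SAPK1, 1.12 for SAPK6, 0.96 for SAPK7 and -0.76 for SAPK3. For SAPK1 each of the 3 OE drought libraries was above each WT drought library, and the value passed without any 1 library. The calls of SAPK6, SAPK7 and SAPK3 were lost under 9, 10 and 16 of the 18 alternatives. For SAPK7 the difference combined a drought value of 0.46 in OE roots that did not pass with one of -0.50 in WT roots that did. For SAPK3 both genotypes fell, OE further. Of 4 listed root markers, LSI1 (-1.45, adjusted p = 0.00512), LSI2 (-2.63, adjusted p = 0.00283) and LOC_Os02g44310 (-1.12, adjusted p = 0.0178) also had a lower drought response in OE roots. LOC_Os12g36830 had a value in the other direction, at 1.33 (adjusted p = 0.0764), and passed at 1.59 after median-ratio scaling (adjusted p = 0.0454), where LOC_Os02g44310 did not pass. The part of these markers in the SAPK results was not tested.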

How the results depend on the processing

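Over 50 member differences and their alternatives, 811 values kept direction and side of the threshold, 81 were no longer past it, 20 newly passed and 28 changed sign; only the libraries compared could not be used for the interaction. With equal library weights, 9144 genes were called for OE against WT after drought, and 417 genes and 0 members in normal conditions. In the interaction SAPK1 still passed with equal weights, and SAPK3, SAPK6 and SAPK7 did not (adjusted p = 0.125, 0.103 and 0.116). Using only the libraries compared, SAPK5 (adjusted p = 0.00492) and SAPK7 (adjusted p = 0.0329) also passed for OE against WT in normal conditions. With a replicate block this comparison gave 1 member and 4507 genes, and in the interaction only SAPK1 still passed. Deviations from the group means correlated at -0.13 to 0.059 for 15 same-number pairs, none over 0.1. Pairs of different number ranged from -0.271 (OE drought 2 with WT drought 1) to 0.252 (OE drought 3 with WT drought 1). With so few libraries per group these values cannot show whether libraries were paired. With no filter SAPK3, SAPK6 and SAPK7 no longer passed in the interaction (adjusted p = 0.06, 0.0592 and 0.054). Median-ratio scaling gave 5 members for drought in WT, where 56.3% of genes were called.

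Leaving out 1 library gave 2 to 5 members and 1942 to 7443 genes for OE against WT after drought, 1 to 4 and 5046 to 7535 in normal conditions, 6 to 7 and 14773 to 18243 for drought in OE, 7 to 9 and 11770 to 15440 for drought in WT, and 1 to 6 and 2491 to 7112 for the interaction. The share of SAPK8 to SAPK10 was 10.8% to 12.0% in OE drought, 13.2% to 13.8% in WT drought, 30.8% in OE normal and 28.4% to 29.0% in WT normal.

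Sign changes were among differences that did not pass as reported. Between OE and WT after drought they were SAPK8 at 0.0053 (FPKM) and 0.20 (median-ratio scaling), SAPK2 at 0.019 (median-ratio scaling) and SAPK5 at 0.19 without WT drought replicate 3, in a leave-one-out range of -0.55 to 0.19. In normal conditions SAPK4 was -0.019, -0.020 and -0.0057 and SAPK8 -0.015, -0.015 and -0.0011 with FPKM, median-ratio scaling and the replicate block. Leaving out single libraries, SAPK4 ranged over -0.020 to 0.017, SAPK8 over -0.025 to 0.047 and SAPK1 over -0.078 to 0.039. With drought in OE roots SAPK4 passed at 0.45 and SAPK10 was 0.38 with median-ratio scaling, and SAPK10 ranged over -0.40 to 0.0039 without single libraries. In the interaction SAPK8 was 0.020 (FPKM) and 0.21 (median-ratio scaling), SAPK5 was -0.0022 with the replicate block and -0.27 to 0.48 without single libraries, and SAPK10 -0.013 to 0.46. The cause was not tested. Depth in reads is not known, which leaves the counting error of SAPK10, the member with the lowest coverage, without a value.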
